A study of Homo sapiens with 3 samples.

Results

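The genes described here encode the small proline-rich proteins (SPRR) and involucrin, precursors of the cornified envelope. They were taken by name from the deposited table: SPRR1A, SPRR1B, SPRR2A, SPRR2B, SPRR2D, SPRR2E, SPRR2F, SPRR2G, SPRR3 and IVL, 10 genes of 35851 rows. The set was selected on measured values, the high RPKM of several of them in 1 of the 3 libraries, so levels and ratios between libraries are given as a description, with no support drawn from them. The libraries were made from 5637, an established human bladder cancer cell line, labelled wild type and grown in 10% serum. Cells of 2 libraries, siMYBL2-1 and siMYBL2-2, had received an siRNA to MYBL2 and those of 1 library, siNC, a control siRNA, all by the same lipid reagent. MYBL2 is a MYB family transcription factor of late cell cycle genes, and the study asked which genes lie downstream of it. Whether siMYBL2-1 and siMYBL2-2 are different siRNA sequences or repeats of 1, and whether they came from separate cultures, is not stated in the labels, so the spread between these libraries may be technical.

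The cornified envelope is the cross-linked protein shell that replaces the plasma membrane in the outer cells of stratified squamous epithelia. Involucrin is an early scaffold under the membrane, and the SPRR proteins, rich in proline, glutamine and lysine, act as bridges that transglutaminases join to it and to other precursors. The genes lie together in the epidermal differentiation complex on chromosome 1. Normal urothelium does not cornify, and SPRR genes are known as markers of squamous differentiation and as genes induced by epithelial stress and injury.

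The SPRR2 genes are near-identical copies, which bears on each SPRR2 value below. In the GENCODE release 29 transcripts (GRCh38, the assembly that hg38 names) the coding sequence of SPRR2A lies in 1 exon at chr1:153056517-153056735 on the minus strand, that of SPRR2B at chr1:153070621-153070839, that of SPRR2F at chr1:153112515-153112733 and that of SPRR2G at chr1:153149889-153150110. They are shown 5′ to 3′ because the copies can be told apart only where they differ; capitals mark the bases that differ from SPRR2A in an end-to-end alignment.
SPRR2A: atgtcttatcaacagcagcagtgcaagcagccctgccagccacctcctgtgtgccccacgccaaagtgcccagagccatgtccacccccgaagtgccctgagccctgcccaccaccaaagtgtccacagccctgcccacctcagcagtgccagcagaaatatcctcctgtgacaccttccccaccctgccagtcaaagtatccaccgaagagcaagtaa
SPRR2B: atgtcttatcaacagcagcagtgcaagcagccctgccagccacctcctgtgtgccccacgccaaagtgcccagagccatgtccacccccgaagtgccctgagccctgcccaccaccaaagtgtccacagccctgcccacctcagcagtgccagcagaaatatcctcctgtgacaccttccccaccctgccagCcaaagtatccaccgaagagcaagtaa
SPRR2F: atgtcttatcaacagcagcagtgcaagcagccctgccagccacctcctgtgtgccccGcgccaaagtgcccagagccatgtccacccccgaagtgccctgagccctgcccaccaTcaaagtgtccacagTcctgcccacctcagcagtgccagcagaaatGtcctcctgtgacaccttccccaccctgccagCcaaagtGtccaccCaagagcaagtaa
SPRR2G: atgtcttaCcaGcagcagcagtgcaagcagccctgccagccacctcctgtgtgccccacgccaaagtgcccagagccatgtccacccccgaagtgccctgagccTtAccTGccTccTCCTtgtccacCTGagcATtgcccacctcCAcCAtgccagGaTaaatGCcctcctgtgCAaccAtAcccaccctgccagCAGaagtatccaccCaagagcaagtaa
SPRR2B differs from SPRR2A at 1 of 219 bases, SPRR2D at 4, SPRR2E at 5 and SPRR2F at 7, whereas SPRR2G, the most distant copy, is 85.6% identical over 222 aligned bases. SPRR1A and SPRR1B are 96.3% identical over 270 bases. Stretches were also compared over whole transcripts, untranslated parts included except in SPRR1A. Of the stretches of 100 bases in SPRR2A, 20.3% also occur in another SPRR gene. The share was 18.1% in SPRR2B, 11.3% in SPRR2E, 3.74% in SPRR2D and none in SPRR2F or SPRR2G. For stretches of 50 bases the shares are 32.7% in SPRR2A, 32% in SPRR2B, 23.4% in SPRR2E, 19.3% in SPRR2D, 18.2% in SPRR2F, 8.29% in SPRR2G, 11.3% in SPRR1A and 4.38% in SPRR1B. For stretches of 150 bases the shares are 10.5% in SPRR2A, 9.4% in SPRR2B and 3.76% in SPRR2E, and none in the other members. SPRR1A and SPRR1B share no stretch of 100 bases, and SPRR3 and IVL share none of any of these lengths. The SPRR1A transcript held only its 270 coding bases, so the untranslated parts of SPRR1A were not compared. Neither the read length nor the treatment of reads that match several copies is stated in the labels. The split of reads among the SPRR2 copies, and between SPRR1A and SPRR1B, is therefore uncertain, and the sum of all 6 copies is given beside it.

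The libraries held 41818861 (siMYBL2-1), 46177658 (siMYBL2-2) and 40259436 (siNC) assigned reads. MYBL2 was at 46.0 RPKM in siMYBL2-1 and 56.3 RPKM in siMYBL2-2, against 211 RPKM in siNC, 4.59-fold and 3.75-fold lower, so the target was lower in both libraries (limma adjusted p 0.153, which misses the threshold of 0.05). RPKM scales reads by exonic length and by the library's assigned reads, so genes can be set side by side within a library. The epithelial markers EPCAM, KRT8, KRT18, KRT19 and CDH1 summed to 1973, 1383 and 1593 RPKM in siMYBL2-1, siMYBL2-2 and siNC. Among markers of other cell types, fibroblast markers summed to between 3.11 and 4.298 RPKM, leukocyte markers to between 3.44 and 5.34 RPKM, almost all of it CD68, and endothelial markers to at most 0.109 RPKM.

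SPRR2A was the most abundant member in siMYBL2-1 and in siNC. It was at 1064 RPKM in siMYBL2-1 (31546 reads) and at 75.0 RPKM in siMYBL2-2 (2454 reads), against 85.2 RPKM in siNC (2433 reads). The level in siMYBL2-1 was 12.5 times that in siNC (95% counting interval 11.98 to 13.01) and 14.2 times that in siMYBL2-2 (13.6 to 14.8), while siMYBL2-2 was 0.879 times siNC (0.831 to 0.930). The siMYBL2-1 library was thus far above the other two, and siNC lay between the siMYBL2 libraries. The siMYBL2 group averaged 569 ± 699 RPKM (SD, n = 2), a spread larger than its difference from siNC. Counting intervals are exact conditional binomial intervals on the reads recovered from the RPKM. They cover counting error only, not the spread between cultures.

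The other SPRR2 copies were also highest in siMYBL2-1. SPRR2B was at 127 RPKM in siMYBL2-1 and 8.00 RPKM in siMYBL2-2, against 12.1 RPKM in siNC, 10.5 times siNC in siMYBL2-1 (9.35 to 11.9) and 0.663 times in siMYBL2-2 (0.555 to 0.790). SPRR2D was at 38.4 RPKM in siMYBL2-1 and 4.302 RPKM in siMYBL2-2, against 3.95 RPKM in siNC, 9.73 times siNC (8.30 to 11.5) and 1.09 times (0.885 to 1.34). The siMYBL2-2 and siNC libraries did not differ in SPRR2D beyond counting error. SPRR2E was at 17.7 RPKM in siMYBL2-1 from 544 reads and at 0.856 RPKM in siMYBL2-2 from 29 reads, against 1.895 RPKM in siNC from 56 reads. SPRR2F was at 10.7 RPKM in siMYBL2-1 from 306 reads and at 0.795 RPKM in siMYBL2-2 from 25 reads, against 2.12 RPKM in siNC from 58 reads. For these rarer copies the ratio of siMYBL2-1 to siNC was 9.35 (7.09 to 12.5) for SPRR2E and 5.08 (3.83 to 6.85) for SPRR2F, and both were lower in siMYBL2-2 than in siNC, at 0.452 (0.278 to 0.719) and 0.376 (0.225 to 0.610) times siNC. SPRR2G had 14 reads (0.589 RPKM) in siMYBL2-1 and 0 reads in siMYBL2-2 and siNC. With siNC set at the floor of 3 reads, SPRR2G was 4.49-fold higher in siMYBL2-1 than in siNC. That value leaves out the counting error of the 14 reads, so it is not a lower bound. SPRR2G is the only member that failed the filter of a mean of 1 RPKM over the 3 libraries.

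**Figure D1:**
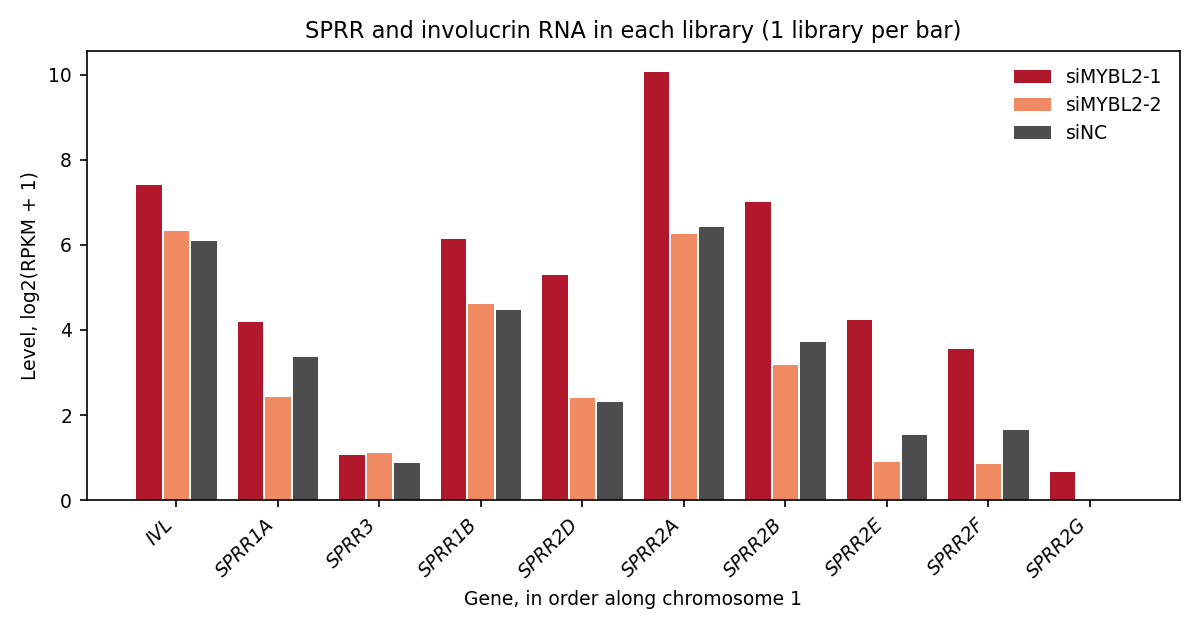
Level of each gene in each library, as log2(RPKM + 1), with genes in order along chromosome 1 and 1 bar per library, so no error bars. The siMYBL2-1 bar is the highest for all genes except SPRR3, and SPRR2A reaches 1064 RPKM there against 85.2 RPKM in siNC; SPRR2G has no bar in siMYBL2-2 and siNC, where it had 0 reads.

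Summing the 6 copies removes the split of reads among them only if each shared read was counted once, within these copies. In that sum SPRR2 took 37389 reads in siMYBL2-1 and 2946 in siMYBL2-2, against 3015 in siNC. That is 0.0894% and 0.00638% of the assigned reads, against 0.00749% in siNC, or 11.9 times siNC in siMYBL2-1 (11.5 to 12.4) and 0.852 times in siMYBL2-2 (0.809 to 0.897). SPRR2A took most of these reads in each library. It held 84.4% of the SPRR2 reads in siMYBL2-1 (exact 95% binomial interval 84.0% to 84.7%) and 83.3% in siMYBL2-2 (81.9% to 84.6%), against 80.7% in siNC (79.2% to 82.1%). SPRR2B held 8.78%, 7.74% and 9.95% in the same libraries, and SPRR2D 4.54%, 7.13% and 5.57%. SPRR2F, one of the rarer copies, made up 0.818% of the SPRR2 reads in siMYBL2-1 (0.730% to 0.915%) and 0.849% in siMYBL2-2 (0.550% to 1.250%), against 1.92% in siNC (1.46% to 2.48%). SPRR2C, a pseudogene between SPRR2F and SPRR2G and no member, had 22 reads in siMYBL2-1, 4 in siMYBL2-2 and 12 in siNC, a ratio of siMYBL2-1 to siNC of 1.77 (0.836 to 3.91).

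The SPRR1 pair and involucrin were also highest in siMYBL2-1, at smaller ratios. SPRR1B, also called cornifin, was at 69.7 RPKM in siMYBL2-1 and 23.5 RPKM in siMYBL2-2, against 21.2 RPKM in siNC. Its ratio to siNC was 3.28 in siMYBL2-1 (2.98 to 3.62) and 1.11 in siMYBL2-2 (0.985 to 1.24), so siMYBL2-2 and siNC did not differ beyond counting error. SPRR1A, counted only over its coding length of 270 bases, was at 17.2 RPKM in siMYBL2-1 (194 reads) and at 4.41 RPKM in siMYBL2-2 (55 reads), against 9.38 RPKM in siNC (102 reads). The siNC level lay between the siMYBL2 libraries, 1.83 times siNC in siMYBL2-1 (1.43 to 2.35) and 0.470 times in siMYBL2-2 (0.332 to 0.659). IVL, the involucrin gene, was at 169 RPKM in siMYBL2-1 (15250 reads) and at 79.3 RPKM in siMYBL2-2 (7885 reads), against 66.8 RPKM in siNC (5786 reads). Both siMYBL2 libraries were above siNC in IVL, 2.54-fold (2.46 to 2.62) and 1.19-fold (1.15 to 1.23). The balance of the 10 genes therefore differed between libraries, with IVL holding 27.9% of their reads in siMYBL2-1 and 67.8% in siMYBL2-2, against 61.0% in siNC, and the SPRR2 copies 68.3%, 25.3% and 31.8%. SPRR3, known from oral and oesophageal epithelium, stood out from the family. It was at 1.10 RPKM in siMYBL2-1 (66 reads) and at 1.17 RPKM in siMYBL2-2 (78 reads), against 0.827 RPKM in siNC (48 reads), and none of its ratios differed from 1 beyond counting error.

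**Figure D2:**
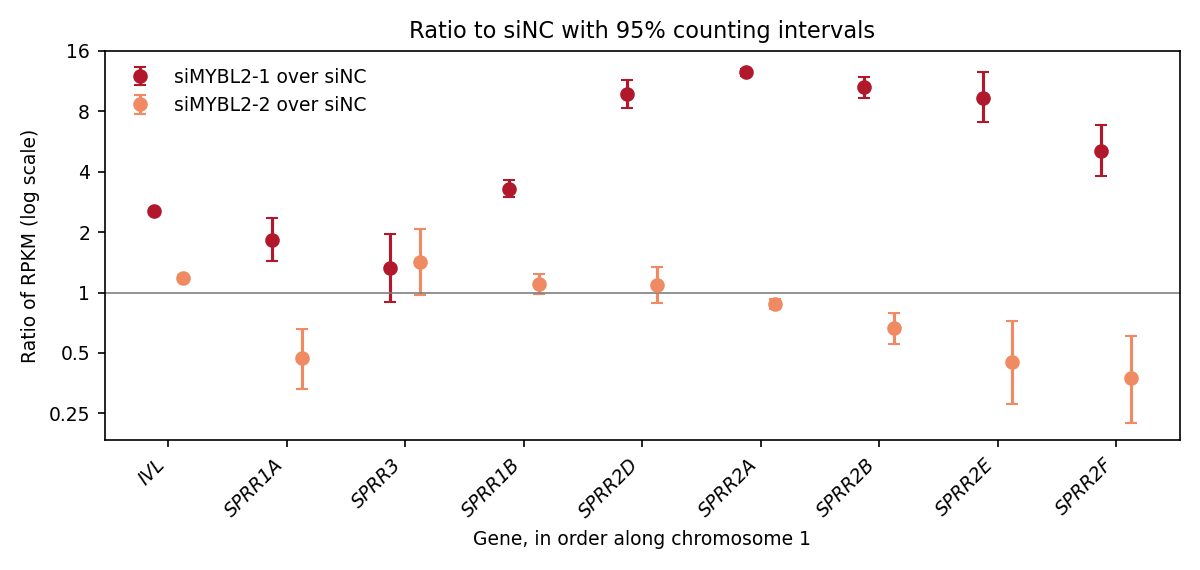
Ratio of RPKM to siNC on a log axis for the 9 measured genes (mean of 1 RPKM or more), with siMYBL2-1 left of siMYBL2-2 for each gene and bars for 95% counting intervals. In siMYBL2-1 the ratio is between 5.08 and 12.5 in the SPRR2 copies and between 1.32 and 3.28 in the others, while in siMYBL2-2 it is between 0.376 and 1.42.

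High levels in siMYBL2-1 are the property the members were selected on, so nothing is read from the counts in this paragraph. On the scale of log2(RPKM + 1), 7 of the 9 measured members were at least 2-fold higher in siMYBL2-1 than in siNC, against 2.15% of the 13274 genes that passed the filter. None were at least 2-fold higher in siMYBL2-2 than in siNC, where the background was 0.422%. Between the siMYBL2 libraries 8 of 9 were at least 2-fold higher in siMYBL2-1 than in siMYBL2-2, against a background of 1.94%, and 7 of 9 were so relative to both other libraries, against 1.08%. The median log2 ratio of the 9 members was 1.91 in siMYBL2-1 and -0.18 in siMYBL2-2, against -0.04 and -0.01 over all genes. Among the ratios of siMYBL2-1 to siNC, SPRR2A ranked 2 of 13274, SPRR2B 5, SPRR2D 7, SPRR2E 9, SPRR2F 46, SPRR1B 69, IVL 141, SPRR1A 524 and SPRR3 3472. In siMYBL2-2 the same genes ranked between 2171 (SPRR3) and 13137 (SPRR1A).

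Taking the siMYBL2 libraries as 1 group, no member passed the test against siNC. In a limma-trend fit over the 13274 genes, with the single siNC library assumed to vary like the siMYBL2 libraries, 0 of 9 members had an adjusted p under 0.05 (0.00753% of all genes did), 0 had an unadjusted p under 0.05 (625 of the 13274 genes did), and 0 were called by limma-voom on the recovered reads (10 of all genes were). SPRR2A had the largest log2 change among the members, 1.72 (SE 1.07, limma adjusted p 0.999), and IVL the smallest unadjusted p, with a log2 change of 0.79 (SE 0.41, limma p 0.0843). In 4 members, IVL, SPRR1B, SPRR2D and SPRR3, both siMYBL2 libraries were above siNC, as in 29.7% of all genes. In the other 5 the siNC level lay between the siMYBL2 libraries, with siMYBL2-1 above it, a pattern whose share over all genes was not computed. Leaving out siMYBL2-1 turned the log2 change of SPRR2A to -0.18, that of SPRR2B to -0.54, that of SPRR2E to -0.64 and that of SPRR2F to -0.80, so their direction rests on that library.

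The members with the highest ratios, the SPRR2 copies, are neighbours on the chromosome. These copies may share reads and the set was selected on these values, so nothing is read from their positions. In siMYBL2-1 the ratio to siNC was 2.54 in IVL, 1.83 in SPRR1A, 1.32 in SPRR3, 3.28 in SPRR1B, 9.73 in SPRR2D, 12.5 in SPRR2A, 10.5 in SPRR2B, 9.35 in SPRR2E and 5.08 in SPRR2F, in this order along the plus strand. The counted exons of IVL span bases 152908545 to 152911886, those of SPRR3 153001747 to 153003856, those of SPRR1B 153031202 to 153032900, those of SPRR2A 153056113 to 153057537 and those of SPRR2F 153112114 to 153113515; IVL, SPRR1A, SPRR3 and SPRR1B are on the plus strand and the SPRR2 genes on the minus strand. SPRR1A to SPRR2G span 165.6 kb (chromosome 1, 152985231 to 153150869, hg38). The wider complex, from S100A10 to S100A1 (151982915 to 153632039), held 14 other rows that passed the filter. Of these, TCHH alone was at least 2-fold higher in siMYBL2-1 than in siNC (2.15% of all genes) and 4 were at least 2-fold lower (1.79%). The log2 ratio of TCHH was 1.0009, barely past the threshold of 1. TCHH, the trichohyalin gene, named after its values were seen, was at 79.1 RPKM in siMYBL2-1 and 36.7 RPKM in siMYBL2-2, against 39.0 RPKM in siNC. The 4 lower rows, also named after their values were seen, were S100A7, S100A8 and S100A9 and the row BX470102.3, which overlaps the span of S100A6. The median log2 ratio of the 14 rows was -0.51 in siMYBL2-1 and -0.75 in siMYBL2-2, against -0.04 and -0.01 over all genes.

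**Figure D3:**
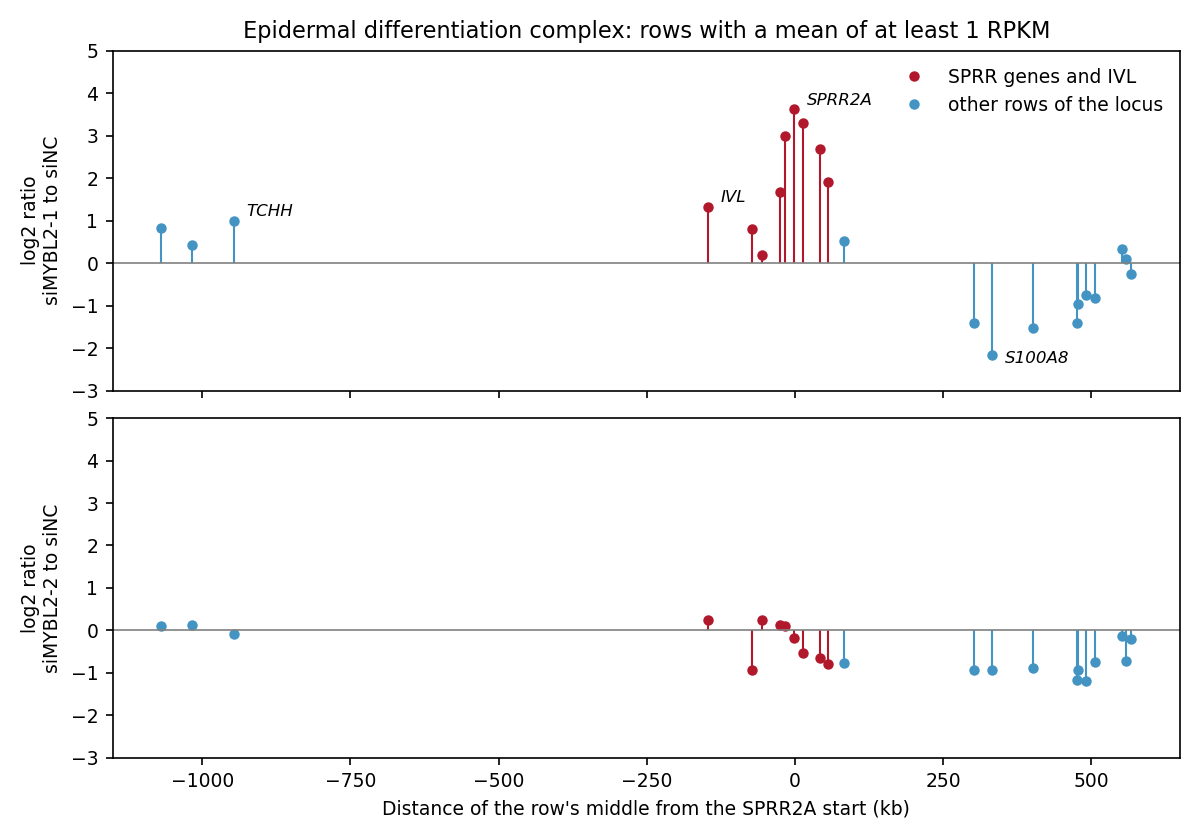
Log2 ratio (RPKM + 1) to siNC of the 23 measured rows of the epidermal differentiation complex, siMYBL2-1 above and siMYBL2-2 below, against the distance of the middle of each row from the SPRR2A start in kb. In siMYBL2-1 the SPRR genes and IVL stand between 0.20 and 3.63, and the S100A7, S100A8 and S100A9 rows on the far side are between -1.42 and -2.15.

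The upstream sequence of the members was read from the RefSeq promoter table (GRCh38.p14), which matched 8 of the 10 genes; SPRR2D and SPRR2E were not matched. In the 250 bases before the start, the AP-1 motif TGANTCA, searched on both strands, was found in 7 of the 8 windows, against 6.57% of 35116 promoters. The octamer ATTTGCAT, or its reverse complement, was found in 3 of 8, those of SPRR2A, SPRR2B and SPRR2F, against 1.63%. The AP-1 and octamer matches do not overlap in these windows. The ETS motif AGGAAG was found in 5 of 8 (28.7% of all). An exact string resembling an interferon-response element, and AACCGGTT, a GRHL factor motif, were each found in 0 of 8 (3.02% and 0.117%). Both strings are so rare over all promoters that finding none in 8 windows is uninformative. Variants of either string were not searched, so these results do not show that the windows lack such sites. The windows of 4 genes are shown, 5′ to 3′ on the strand of the gene, with TGANTCA and ATTTGCAT matches in capitals: SPRR2A (chr1:153057513-153057762, minus strand) as the copy with the largest ratio, SPRR2B (chr1:153071612-153071861, minus) as the window with no AP-1 match, SPRR2F (chr1:153113517-153113766, minus) as a rarer copy that holds both motifs, and IVL (chr1:152908296-152908545, plus) for comparison. The SPRR2B start of RefSeq lies upstream of the single exon that the deposited row counts.
SPRR2A: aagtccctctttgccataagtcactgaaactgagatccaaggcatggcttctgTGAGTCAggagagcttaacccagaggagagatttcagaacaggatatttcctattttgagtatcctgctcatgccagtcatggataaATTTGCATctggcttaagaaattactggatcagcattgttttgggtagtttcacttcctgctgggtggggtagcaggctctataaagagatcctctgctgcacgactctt
SPRR2B: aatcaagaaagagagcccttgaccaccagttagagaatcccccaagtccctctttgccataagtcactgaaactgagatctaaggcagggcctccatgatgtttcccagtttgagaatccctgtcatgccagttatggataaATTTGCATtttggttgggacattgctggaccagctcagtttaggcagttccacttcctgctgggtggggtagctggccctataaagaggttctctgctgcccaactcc
SPRR2F: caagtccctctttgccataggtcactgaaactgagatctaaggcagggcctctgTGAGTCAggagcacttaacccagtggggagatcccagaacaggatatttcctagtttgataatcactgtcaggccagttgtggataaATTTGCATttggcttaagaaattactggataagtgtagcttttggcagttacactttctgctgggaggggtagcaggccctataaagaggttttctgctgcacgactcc
IVL: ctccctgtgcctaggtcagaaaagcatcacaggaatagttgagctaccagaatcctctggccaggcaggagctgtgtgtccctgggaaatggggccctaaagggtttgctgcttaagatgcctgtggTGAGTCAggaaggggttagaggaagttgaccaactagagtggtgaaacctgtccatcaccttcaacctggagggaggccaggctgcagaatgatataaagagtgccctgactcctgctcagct
The AP-1 match begins 197 bases before the start in SPRR2A and 196 in SPRR2F, and the octamer 110, 108 and 109 bases before it in SPRR2A, SPRR2B and SPRR2F. A match describes these letters only. The SPRR2 windows belong to copies of similar sequence, so they are not independent, and no enrichment is read from these counts.

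The other envelope precursors had no common direction. Of 42 such genes, 20 had a row and 8 passed the filter. In siMYBL2-1, 2 of the 8 were higher than siNC by 2-fold or more (2.15% of all genes) and 3 were lower by as much, which 1.79% of all genes were. In siMYBL2-2 0 were higher and 1 was lower, against backgrounds of 0.422% and 0.912%. PI3, which encodes the elastase inhibitor elafin, was at 37.0 RPKM in siMYBL2-1 and 41.1 RPKM in siMYBL2-2, against 99.1 RPKM in siNC. SLPI, a related protease inhibitor, was at 46.5 and 66.1 RPKM in siMYBL2-1 and siMYBL2-2, against 103 RPKM in siNC. CSTA (cystatin A) was at 1.11 and 3.09 RPKM, against 5.68 RPKM in siNC. CST6 (cystatin M/E) was on the other side, at 3.06 and 1.08 RPKM, against 0.458 RPKM (14 reads) in siNC. The smallest adjusted p of the list was 0.401 by limma, for PI3, and 0 of the 8 passed. The 8 genes had median log2 ratios to siNC of -0.00079 (siMYBL2-1) and -0.14 (siMYBL2-2).

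Of the cross-linking, lipid and protease genes, 3 of the 19 with a row reached a mean of 1 RPKM. TGM2, the tissue transglutaminase, was at 38.6 RPKM in siMYBL2-1 and 16.5 RPKM in siMYBL2-2, against 22.0 RPKM in siNC, and ST14, the membrane protease matriptase, at 71.9 and 35.8 RPKM, against 33.2 RPKM in siNC. SPINK5, an inhibitor of epidermal kallikreins, was at 2.26 RPKM in siMYBL2-1 and 11.6 RPKM in siMYBL2-2, against 12.7 RPKM in siNC. SPINK5 was thus low in the library in which SPRR2 was high. It is the 1 gene of the 3 at least 2-fold lower in siMYBL2-1 than in siMYBL2-2 (0.919% of all genes). ST14 and TGM2 went the other way, both being highest in siMYBL2-1. ST14 was at least 2-fold higher there than in siNC (2.15% of all genes). TGM2 was at least 2-fold higher there than in siMYBL2-2 (1.94% of all genes).

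The S100 genes of the same locus encode calcium-binding proteins, several of them abundant in inflamed epidermis, and their median lay below siNC in both siMYBL2 libraries. S100A9 was at 2404 RPKM in siMYBL2-1 and 3390 RPKM in siMYBL2-2, against 6419 RPKM in siNC. S100A8, its partner in calprotectin, was at 3.49 and 9.56 RPKM, against 19.0 RPKM in siNC, and S100A7 (psoriasin) at 9.50 and 15.6 RPKM, against 29.5 RPKM in siNC. S100A11 was at 612 and 504 RPKM, against 459 RPKM in siNC. Of 11 measured S100 genes none was 2-fold higher in siMYBL2-1 and 3 were lower by 2-fold or more (1.79% of all genes), with a median log2 ratio of -0.75, and 1 was lower in siMYBL2-2 (0.912% of all genes), with a median of -0.74. By limma 0 of 11 passed, 6 had an unadjusted p under 0.05, as 625 of all 13274 genes did, and the smallest adjusted p was 0.579.

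The squamous keratins differed in direction among themselves. KRT13, the keratin of internal squamous epithelia and of urothelium, was at 24.0 RPKM in siMYBL2-1 and 75.7 RPKM in siMYBL2-2, against 165 RPKM in siNC, and KRT4, its partner, at 1.02 and 2.37 RPKM, against 3.31 RPKM in siNC. KRT80 was at 7.92 and 4.89 RPKM, against 2.54 RPKM in siNC. KRT17 was at 558 and 497 RPKM, against 724 RPKM in siNC, and KRT6A at 119 and 108 RPKM, against 141 RPKM in siNC. In siMYBL2-1, 1 of 9 measured genes was higher than siNC by 2-fold or more (2.15% of all genes) and 2 were lower (1.79%), with a median log2 ratio of -0.37. Of 10 basal layer genes, 1 was higher and 2 were lower by the same measure, with a median of -0.23. TP63, the master factor of basal squamous cells, was at 6.11 RPKM in siMYBL2-1 and 12.3 RPKM in siMYBL2-2, against 14.5 RPKM in siNC. KRT5, the basal keratin, was at 176 RPKM in siMYBL2-1 and 230 RPKM in siMYBL2-2, against 315 RPKM in siNC. The basement membrane gene COL17A1 was at 15.4 and 29.9 RPKM, against 41.1 RPKM in siNC. LAMB3, a laminin chain gene, was highest in siMYBL2-1, at 143 RPKM, with 39.1 RPKM in siMYBL2-2, against 39.3 RPKM in siNC. By limma 0 of these 19 genes passed.

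Among 16 measured transcription factors of squamous differentiation, 4 were higher in siMYBL2-1 than in siNC by 2-fold or more (2.15% of all genes) and 0 lower by as much (1.79%), with a median log2 ratio of 0.24. GRHL3, a grainyhead factor of the epidermal barrier, was at 8.03 RPKM in siMYBL2-1 (1323 reads) and at 1.42 RPKM in siMYBL2-2 (258 reads), against 0.712 RPKM in siNC (113 reads). That is 11.3 times siNC in siMYBL2-1 (9.30 to 13.8) and 1.99 times in siMYBL2-2 (1.59 to 2.51). OVOL1, a zinc finger factor of keratinocyte differentiation, was at 4.16 and 1.99 RPKM, against 1.17 RPKM in siNC. KLF5 was at 65.0 and 61.3 RPKM, against 84.4 RPKM in siNC. By limma 0 of 16 had an adjusted p under 0.05, the lowest being 0.726, and 3 had an unadjusted p under 0.05, against 625 of all 13274 genes.

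The AP-1 subunits, FOS and JUN family proteins that bind DNA as pairs, differed in direction among themselves. FOSL1, a FOS family subunit abundant in squamous cells, was at 78.6 RPKM in siMYBL2-1 and 40.9 RPKM in siMYBL2-2, against 12.8 RPKM in siNC, 6.13 times siNC (5.73 to 6.57) and 3.19 times (2.97 to 3.43). It was above siNC in both siMYBL2 libraries. FOS was at 1.68 and 3.53 RPKM, against 8.33 RPKM in siNC, JUNB at 15.1 and 19.3 RPKM, against 33.0 RPKM in siNC, and JUN at 68.8 and 48.2 RPKM, against 98.4 RPKM in siNC. The median log2 ratio of the 8 measured subunits was -0.42 in siMYBL2-1 and -0.73 in siMYBL2-2, and 0 passed limma (smallest adjusted p 0.264, 5 with an unadjusted p under 0.05, against 625 of all 13274 genes). In siMYBL2-1, 1 of the 8 was higher than siNC by 2-fold or more and 2 were lower, against 2.15% and 1.79% of all genes, and likewise 1 and 2 in siMYBL2-2, against 0.422% and 0.912%.

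Of the epithelial cytokines and EGF family ligands, secreted signals that act on keratinocytes, 6 of 9 measured genes were at least 2-fold higher in siMYBL2-1 than in siNC (2.15% of all genes) and 0 in siMYBL2-2 (0.422%). Between the siMYBL2 libraries 8 of 9 were at least 2-fold higher in siMYBL2-1 (1.94% of all genes), with median log2 ratios to siNC of 1.36 (siMYBL2-1) and -0.20 (siMYBL2-2). IL1RN, the interleukin-1 receptor antagonist, was at 9.44 RPKM in siMYBL2-1 and 0.991 RPKM in siMYBL2-2, against 1.29 RPKM in siNC, 7.33 times siNC (6.24 to 8.65) and 0.769 times (0.613 to 0.964). TGFA, an EGF receptor ligand, was at 16.3 and 4.07 RPKM, against 2.84 RPKM in siNC. AREG (amphiregulin) was at 206 and 106 RPKM, against 60.4 RPKM in siNC, and CXCL8 (interleukin-8) at 56.3 and 23.3 RPKM, against 31.0 RPKM in siNC. By limma 0 of 9 had an adjusted p under 0.05, the lowest being 0.654, and 2 had an unadjusted p under 0.05, as 625 of all 13274 genes did.

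**Figure D4:**
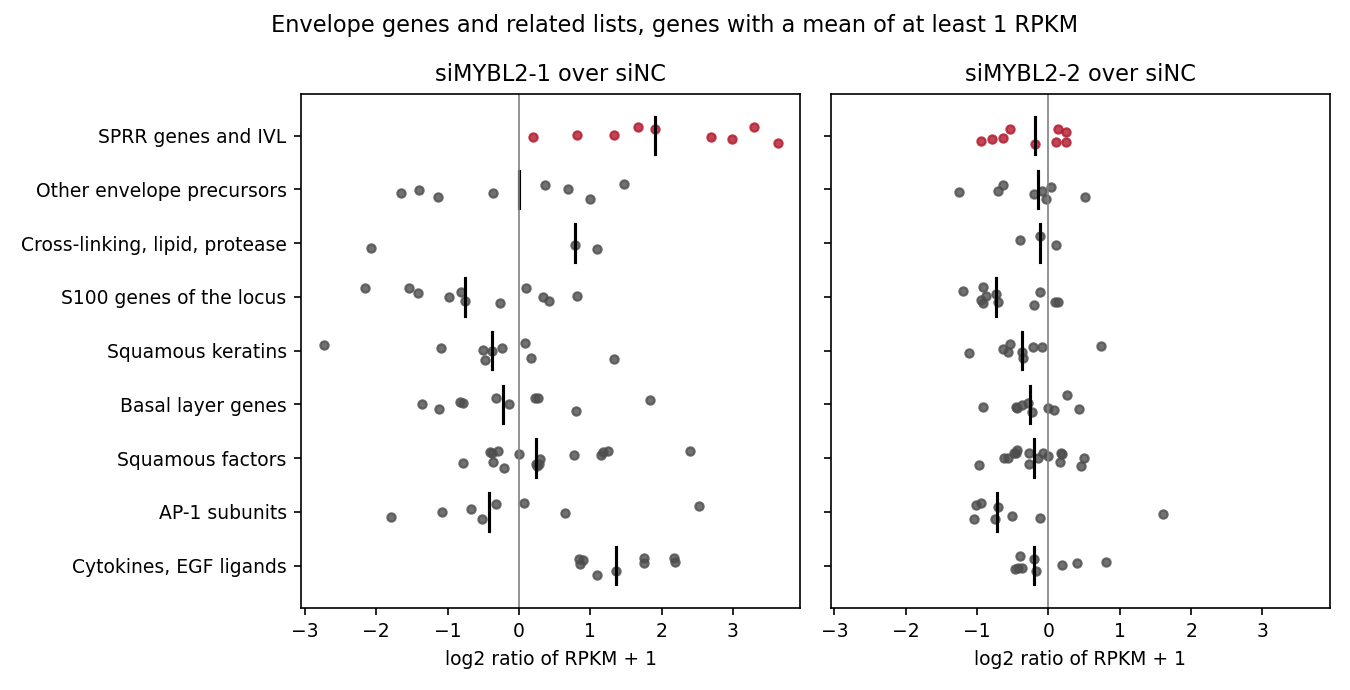
Log2 ratio (RPKM + 1) to siNC of every gene of each list that passed the filter, siMYBL2-1 left and siMYBL2-2 right; points are genes and vertical bars are list medians. The medians of the SPRR genes with IVL and of the cytokines and EGF ligands are 1.91 and 1.36 in siMYBL2-1, against -0.18 and -0.20 in siMYBL2-2.

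The genes outside the family whose 3 levels were most like summed SPRR2, by the distance between their pairs of log2 ratios to siNC, were EDN1, PLAUR, KRT81, SERPINB2, SERPINB10, SEMA7A, G0S2 and CXorf49, at distances between 0.952 and 1.37. PLAUR, the urokinase receptor gene, was at 417 RPKM in siMYBL2-1 and 53.3 RPKM in siMYBL2-2, against 67.1 RPKM in siNC. EDN1 (endothelin-1) was at 52.4 and 8.23 RPKM, against 5.05 RPKM in siNC, and the hair keratin gene KRT81 at 18.3 and 1.36 RPKM, against 2.23 RPKM in siNC. SERPINB2, which encodes the plasminogen activator inhibitor PAI-2, was at 180 and 29.6 RPKM, against 14.8 RPKM in siNC. Its row overlaps that of its neighbour SERPINB10 in part (80.1% and 79.7% of their bases are free of any overlap), so their reads cannot be told apart fully. CXorf49 has a near-identical copy, CXorf49B, so its value is uncertain. Across the 8 the lowest limma adjusted p was 0.715. With 3 libraries the likeness rests on 2 ratios that share siNC, and says only which genes had the nearest pair of ratios. The order of libraries was not always the same. Summed SPRR2 was lower in siMYBL2-2 than in siNC, whereas EDN1, SERPINB2, SERPINB10, SEMA7A and G0S2 were higher there than in siNC.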

How the data were processed

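Poly(A) RNA-seq libraries with dUTP-marked second strands (per the labels' protocols) were deposited by the authors as 1 table of RPKM with exon intervals and exonic lengths; per the submitters' processing notes, cutadapt 1.9, HISAT2 2.0.4, StringTie 1.3.4d and hg38 were used. Which annotation and counter, and which strand setting, is not given in the sources used here. RPKM multiplied by length gave whole reads for 100% of values within 0.001 reads. Of rows with 2 to 21 reads, 76.1% to 77.8% had an even number, so a read pair may count as 2 reads and counting intervals may be too narrow. Floors are 3 reads per library. Floors and intervals cover counting error alone: PCR copies carry no molecular identifier here. The exons of the members overlap no other row.

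Across the 13274 genes averaging 1 RPKM or more, log2(RPKM + 1) was tested with limma-trend (limma 3.58.1 in R 4.3.3), siMYBL2 (n = 2) against siNC (n = 1), with Benjamini-Hochberg adjustment, a threshold of 0.05 and 1 residual degree of freedom. The fit was tried on simulated data with known changes, with noise that followed the smoothed spread between the siMYBL2 libraries. Gene-specific spreads such as that of SPRR2A were not simulated, so the fit was not tested for such genes. Log2 ratios and 2-fold counts use log2(RPKM + 1), which understates low genes; folds of single genes are plain ratios. There were 8 other gene lists; from each, the 2 genes with the highest mean RPKM and the 3 with the largest absolute log2 ratio of siMYBL2-1 to siNC were named, and the 8 genes nearest to summed SPRR2. Some genes that this rule names are not reported here. The members and lists were chosen with earlier results of these data known. Alternatives were the pseudocount, the filter, rescaling, summed SPRR2 copies, limma-voom and leaving out a library.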

Additional observations from a re-analysis of the deposited data

How the results depend on the processing

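No member passed the threshold under the settings tried: pseudocounts of 0.1 or 5 RPKM, no filter, a filter at 5 RPKM, median-ratio rescaling, summed SPRR2 copies and limma-voom, with adjusted p between 0.844 and 1. Over all genes, 1 gene passed as reported, 0 with a pseudocount of 5 RPKM, without the filter, with the filter at 5 RPKM or with rescaling, and 10 by limma-voom; the cause was not tested. MYBL2 had an adjusted p of 0.00811 by limma-voom, against 0.153. With SPRR2 counted as 1 feature, 3 of 5 features were at least 2-fold higher in siMYBL2-1 than in siNC and 4 of 5 than in siMYBL2-2. The lower counts follow from fewer features. With the copies kept apart, the shares over all 13274 genes were 2.15% and 1.94%. SPRR1A changed sign with a pseudocount of 5 RPKM (0.0065). Leaving out either siMYBL2 library gave log2 changes of -0.94 to 0.81 in SPRR1A, -0.18 to 3.63 in SPRR2A, -0.54 to 3.29 in SPRR2B, -0.64 to 2.69 in SPRR2E and -0.80 to 1.91 in SPRR2F, without a test. Median-ratio rescaling moved no library by more than 0.02 on the log2 scale. Counting each read pair once was an alternative chosen after seeing the data. The interval of the ratio to siNC then excluded 1 in 8 of 9 members for siMYBL2-1 and in 6 of 9 for siMYBL2-2. Both counts were the same as with all reads. The members were selected on high levels in siMYBL2-1 and the share over all genes was not computed, so nothing is read from these counts. No paired analysis was possible because siNC has 1 library with no replicate number. edgeR was not run, since the deposited values are RPKM, and limma-voom was the only fit made on recovered reads. Depth limits SPRR2G, SPRR2C and SPRR3, with at most 78 reads each.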
